A study of Homo sapiens with 4 samples.

Results

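The 10 genes described here are mesenchymal markers and factors of epithelial-mesenchymal transition (EMT): VIM, FN1, CDH2, ZEB1, ZEB2, SNAI1, SNAI2, TWIST1, SPARC and THBS1. They were chosen by name among 19775 genes named by a probe set with a single symbol, and every probe set whose only annotated symbol was 1 of them was taken, 32 of 54613 on the array. The RNA came from HCT116, an epithelial line derived from a human colon carcinoma. The 2 versions, HCT116 wt and HCT116 wt/GFP, were grown as monolayers and as spheroids, in which cells cling together in a ball. With 1 array for each of the 4 combinations, spheroids and monolayers were each measured on 2 arrays. The labels name no allele or agent beyond GFP, the green fluorescent protein, and give neither the time in culture nor the number of cultures behind an array. The study set spheroids against monolayers to characterise how their gene expression differs.

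In EMT, epithelial cells loosen their junctions and take on a mesenchymal, migratory form. The zinc finger proteins SNAI1, SNAI2, ZEB1 and ZEB2 bind E-box sequences in the CDH1 gene and repress it, and TWIST1, a basic helix-loop-helix factor, acts in the same programme. Vimentin, N-cadherin (CDH2) and fibronectin (FN1) are its usual read-outs, while SPARC and thrombospondin 1 (THBS1) are secreted proteins that act on the matrix and on cell adhesion.

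In spheroids FN1, SPARC and TWIST1 rose and VIM, THBS1 and ZEB1 fell, so the genes did not move in 1 direction. FN1 rose 4.97-fold by its brightest probe set, SPARC 4.80-fold and TWIST1 2.53-fold, while THBS1 was 4.78-fold, VIM 2.93-fold and ZEB1 1.67-fold lower than in monolayers (2 arrays per condition). Each fold is that of the gene's brightest probe set. Of the tested probe sets, 1 of 5 for FN1, 2 of 4 for THBS1 and 2 of 3 for ZEB1 were not called. SNAI1 and SNAI2 were tested and not called, and CDH2 and ZEB2 lay below the filter on dim probe sets. The fit, made with limma over all probe sets, took culture condition and line as additive terms on log2(signal + 14.0). The signal is the deposited MAS5 intensity, and a probe set was called at a Benjamini-Hochberg adjusted p under 0.05 over all 32768 probe sets tested. Fold changes are on that scale and understate the change of dim probe sets.

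Sequence just upstream of the start was set beside the genes whose levels moved most. Of the 10 genes, 7 matched the RefSeq promoter table (build GRCh38.p14), and shown are the 250 bases before the annotated start for FN1 and SPARC, which rose, and for VIM and THBS1, which fell. Each of these genes has a single start in the table. Capitals mark every match, on either strand, to 5 motifs: the E-box CAGGTG bound by SNAI and ZEB proteins, the HIF core ACGTG, the cyclic AMP response element TGACGTCA, the TATA box TATAAA and the GC box GGGCGG. Each sequence is written 5' to 3' on the gene's strand.
FN1: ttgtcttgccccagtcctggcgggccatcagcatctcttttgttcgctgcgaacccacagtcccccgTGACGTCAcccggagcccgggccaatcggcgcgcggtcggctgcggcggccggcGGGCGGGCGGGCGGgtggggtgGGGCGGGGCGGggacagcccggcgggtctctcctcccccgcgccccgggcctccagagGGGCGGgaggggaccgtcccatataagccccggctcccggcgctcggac
SPARC: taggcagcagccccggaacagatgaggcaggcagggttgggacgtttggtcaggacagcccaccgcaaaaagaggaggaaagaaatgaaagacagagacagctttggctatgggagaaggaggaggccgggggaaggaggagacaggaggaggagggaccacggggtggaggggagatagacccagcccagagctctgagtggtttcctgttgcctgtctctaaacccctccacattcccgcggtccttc
VIM: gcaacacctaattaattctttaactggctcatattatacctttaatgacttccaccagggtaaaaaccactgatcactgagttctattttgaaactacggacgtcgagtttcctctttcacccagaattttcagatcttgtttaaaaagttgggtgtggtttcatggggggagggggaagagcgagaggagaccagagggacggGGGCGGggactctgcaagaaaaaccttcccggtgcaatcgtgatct
THBS1: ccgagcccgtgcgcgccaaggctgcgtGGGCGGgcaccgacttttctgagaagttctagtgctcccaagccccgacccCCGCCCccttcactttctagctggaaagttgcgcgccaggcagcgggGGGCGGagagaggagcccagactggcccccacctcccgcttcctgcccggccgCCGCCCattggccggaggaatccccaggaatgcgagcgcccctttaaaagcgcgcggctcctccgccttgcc
FN1 lies on the minus strand at chr2:215436069-215436318, SPARC on the minus strand at chr5:151686916-151687165, VIM on the plus strand at chr10:17227991-17228240 and THBS1 on the plus strand at chr15:39580829-39581078. The FN1 window held 1 response element, which begins 183 bases before the start, and 6 GC boxes, of which some overlap. THBS1 held 4 GC boxes, VIM 1 and SPARC 0. Over all 35116 windows of this length, 42.6% held a GC box and 1.65% the response element. None of these 4 windows held the E-box, the HIF core or the TATA box, which 17.5%, 18.5% and 10.7% of all windows held. Of the 7 windows listed for ZEB1, 2 held an E-box. The bases G and C made up 76.4% of the FN1 window, 69.6% of THBS1, 59.2% of SPARC and 46% of VIM, against a median of 58% over all windows. These matches describe the letters in the windows only.

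Of the 32 probe sets, 17 exceeded the filter, the 40th percentile of mean log2 values, which equals a signal of 30.6, and 15 did not. A total of 10 of the 17 were called, 6 higher and 4 lower in spheroids, which was 58.8% of those tested. Over all probe sets tested, 40.1% were called, with 25.5% higher and 14.6% lower. The 17 had a median log2 change of 0.42, beside 0.23 for all probe sets tested. Their median was -7.94e-05 without the wt monolayer array and 0.13 without the wt/GFP spheroid array. It was 0.34 without the wt spheroid array and 0.59 without the wt/GFP monolayer array. The groups did not overlap in 13 of the 17, and in 69.3% of all probe sets tested (spheroids higher in 45.3%, lower in 24%). Counting each gene by its brightest probe set, 6 of 8 tested genes were called, 3 in each direction, beside 47.3% of all 14349 genes. Probe sets of 1 gene were read on the same arrays and are not separate replicates of the change.

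**Figure D1:**
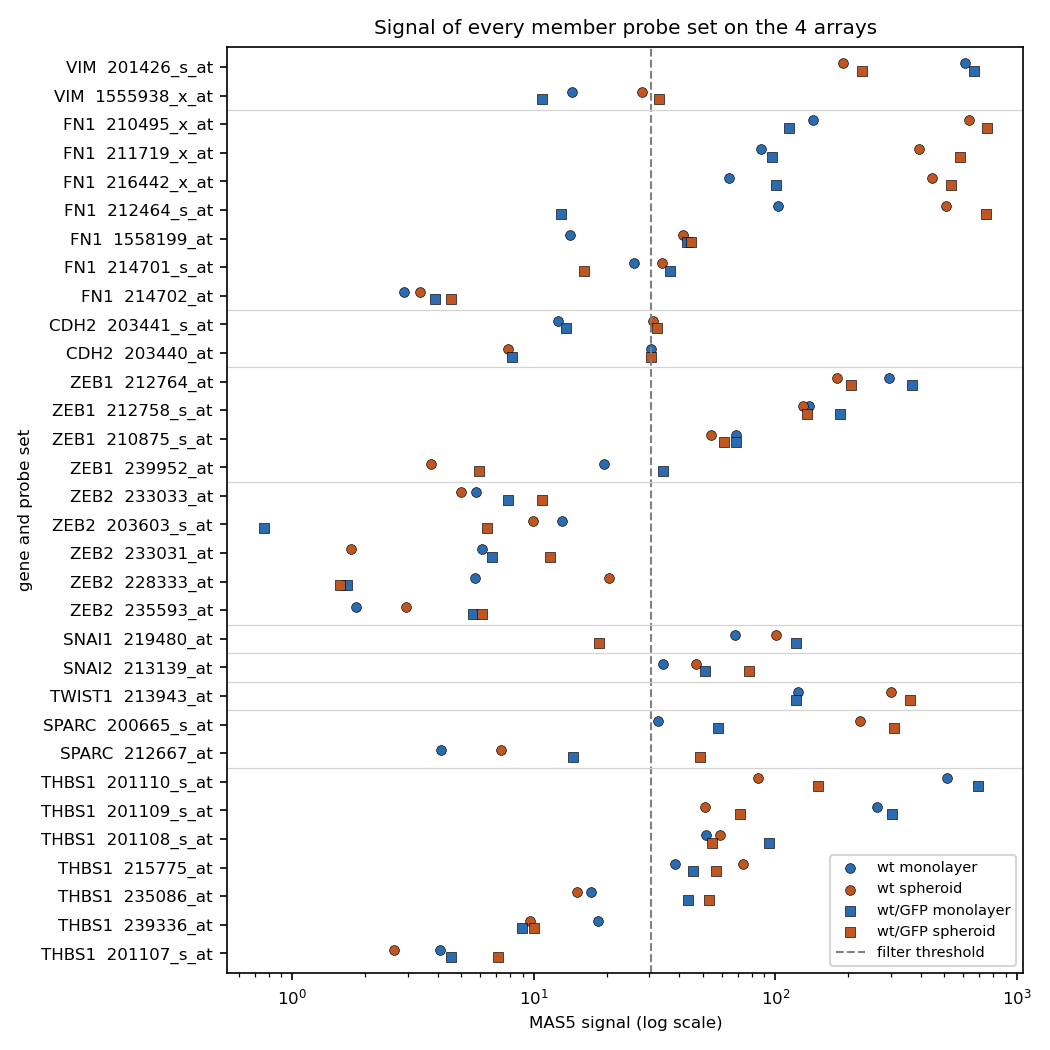
MAS5 signal on a log scale for all 32 probe sets of the 10 genes on the 4 arrays; circles are wt, squares wt/GFP, blue monolayer and orange spheroid, and the dashed line is the filter at a signal of 30.6. All 5 ZEB2 probe sets stay left of the line on every array, while the brightest VIM, FN1, TWIST1, SPARC and THBS1 probe sets show monolayer and spheroid arrays apart.

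Some facts of all arrays bear on these values. The median signal was 47.9 and 48.6 on the monolayer arrays and 67.0 and 68.2 on the spheroid arrays, although all arrays share a trimmed mean of 500.1. The signal ratio of the 3' to the 5' end of ACTB, a gauge of RNA integrity, was 1.30 and 1.32 for monolayers against 1.73 and 1.76 for spheroids, while that of GAPDH was 0.882 and 0.897 against 0.868 and 0.951, and the part of the ACTB ratio in the results was not tested. Epithelial identity was checked with 9 markers of colon epithelium, of which 8 exceeded the filter. The summed signals of the 9 were 86594 to 104921 in monolayers and 114375 to 115946 in spheroids. These sums came mostly from EPCAM, KRT8, KRT18 and KRT19, with signals of 16249 to 32967. CDX2 gave 33.1 to 81.6, VIL1 16.1 to 90.7 and CDH17 19.0 to 39.5, and KRT20 gave 112 and 155 in monolayers. Of 18 genes restricted to other tissues, such as INS, GFAP and SFTPC, 9 nonetheless exceeded the filter. The median of their signals was 36.9 and the 90th percentile 199, with MBP included. HBB reached 386, so passing the filter does not by itself show expression. MBP gave 464 and 497 in monolayers and 918 and 1160 in spheroids and was called higher (limma adjusted p = 3.58e-06). Its lack of expression here is thus not certain, and it may raise that percentile. All CDX2, VIL1 and CDH17 signals and the monolayer KRT20 signals lay below the percentile.

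Among the structural markers, vimentin forms the intermediate filaments typical of mesenchymal cells. VIM probe set 201426_s_at gave signals of 613 and 663 in wt and wt/GFP monolayers and 191 and 228 in the spheroids of the same lines. Both spheroid arrays lay far below both monolayer arrays. The mean log2 signal was 9.35 ± 0.08 (SD, n = 2) in monolayers and 7.80 ± 0.17 (SD, n = 2) in spheroids, and fell by 1.55 ± 0.20 SE (limma adjusted p = 3.90e-07). The log2 change was -1.61 in wt and -1.49 in wt/GFP. The other VIM probe set, 1555938_x_at, lay below the filter, with signals of 14.4 and 10.8 in monolayers and 28.0 and 33.0 in spheroids. Its 2 spheroid values were the higher ones, opposite to the bright probe set, at a level below the median of the genes restricted to other tissues.

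CDH2 encodes N-cadherin, the adhesion protein that replaces E-cadherin in many mesenchymal cells. Both of its probe sets lay below the filter. Probe set 203441_s_at gave 12.5 and 13.6 in monolayers and 31.1 and 32.4 in spheroids. Spheroid values were higher in both lines but reached only the filter threshold, and with no filter the log2 change of 0.76 was not called (limma adjusted p = 0.393). Probe set 203440_at gave 30.5 and 8.13 in wt and wt/GFP monolayers and 7.81 and 30.7 in spheroids, so the lines went opposite ways and the groups overlapped.

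Fibronectin, a secreted glycoprotein that cells assemble into fibrils and bind through integrins, had 7 probe sets, of which 5 were tested and 4 rose. The brightest, 210495_x_at, gave 144 and 114 in wt and wt/GFP monolayers and 635 and 754 in spheroids. Its mean log2 signal was 7.15 ± 0.21 (SD, n = 2) in monolayers and 9.46 ± 0.17 (SD, n = 2) in spheroids, a rise of 2.31 ± 0.22 SE (limma adjusted p = 2.90e-09). Probe set 211719_x_at gave 87.3 and 97.0 in monolayers and 395 and 583 in spheroids, and 216442_x_at gave 64.0 and 100.4 against 445 and 533. These 3 probe sets rose by 2.22 to 2.41 log2 units, and their 2 groups lay wide apart. Their names end in _x_at, which marks probes that can also match other sequences. Without probe sets that end in _x_at or _s_at, the called ones were TWIST1 and ZEB1 212764_at.

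Probe set 212464_s_at of FN1 gave 102 in the wt monolayer but 12.9 in the wt/GFP monolayer, and 511 and 747 in the spheroids. Its rise of 3.50 ± 0.38 SE (limma adjusted p = 2.57e-08) was 11.3-fold, with a log2 change of 2.17 for wt and 4.82 for wt/GFP. The log2 change was 2.44 without the wt/GFP monolayer array and 4.55 without the wt monolayer array. The wt/GFP monolayer signals of the 3 other rising probe sets were 97.0 to 114, so the low value was not shared by them. The call was lost with robust moderation (adjusted p = 0.0514) and without the intensity trend (adjusted p = 0.0670). The dim probe set 1558199_at gave 14.1 and 43.1 in monolayers and 41.3 and 44.9 in spheroids, and did not pass (log2 change 0.51, adjusted p = 0.529). The remaining FN1 probe sets, 214701_s_at and 214702_at, lay below the filter with signals of 2.90 to 36.7.

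SPARC, or osteonectin, is a collagen-binding matricellular protein. Its probe set 200665_s_at gave 32.5 and 58.0 in wt and wt/GFP monolayers and 225 and 309 in wt and wt/GFP spheroids. The monolayer values lay near the level of the restricted genes. Both spheroid values lay above the 90th percentile of those genes but below the highest HBB signal of 386. The mean log2 signal was 5.86 ± 0.45 (SD, n = 2) in monolayers and 8.12 ± 0.31 (SD, n = 2) in spheroids, a rise of 2.26 ± 0.34 SE (limma adjusted p = 4.03e-06). The rise in each line was close to that, with 2.36 for wt and 2.17 for wt/GFP. Probe set 212667_at lay below the filter, with 4.14 and 14.6 in monolayers and 7.29 and 48.7 in spheroids, and there the groups overlapped.

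Thrombospondin 1, an adhesive glycoprotein that inhibits blood vessel growth and activates latent TGF-beta, had 7 probe sets that did not move together. The brightest, 201110_s_at, gave 513 and 692 in wt and wt/GFP monolayers and 85.0 and 150 in spheroids, and 201109_s_at gave 263 and 306 against 51.2 and 71.5. Both fell, by 2.26 ± 0.23 SE (limma adjusted p = 8.04e-09) and by 1.99 ± 0.31 SE (adjusted p = 7.17e-06). The SD of the log2 signal of 201110_s_at was 0.30 in monolayers and 0.52 in spheroids (n = 2 each).

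The other THBS1 probe sets were dimmer. Probe set 201108_s_at gave 51.8 and 94.3 in monolayers and 59.0 and 54.8 in spheroids, with a log2 change of 0.15 in wt and -0.66 in wt/GFP. Probe set 215775_at gave 38.3 and 45.7 against 73.7 and 56.7, a log2 change of 0.50 (limma adjusted p = 0.450). Neither passed the test, and the second had its spheroid values above its monolayer values. The last 3 lay below the filter, with signals of 2.63 to 52.9. The fall of THBS1 thus rests on the 2 probe sets that were bright in monolayers, and both have names ending in _s_at, which marks probes shared between transcripts.

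**Figure D2:**
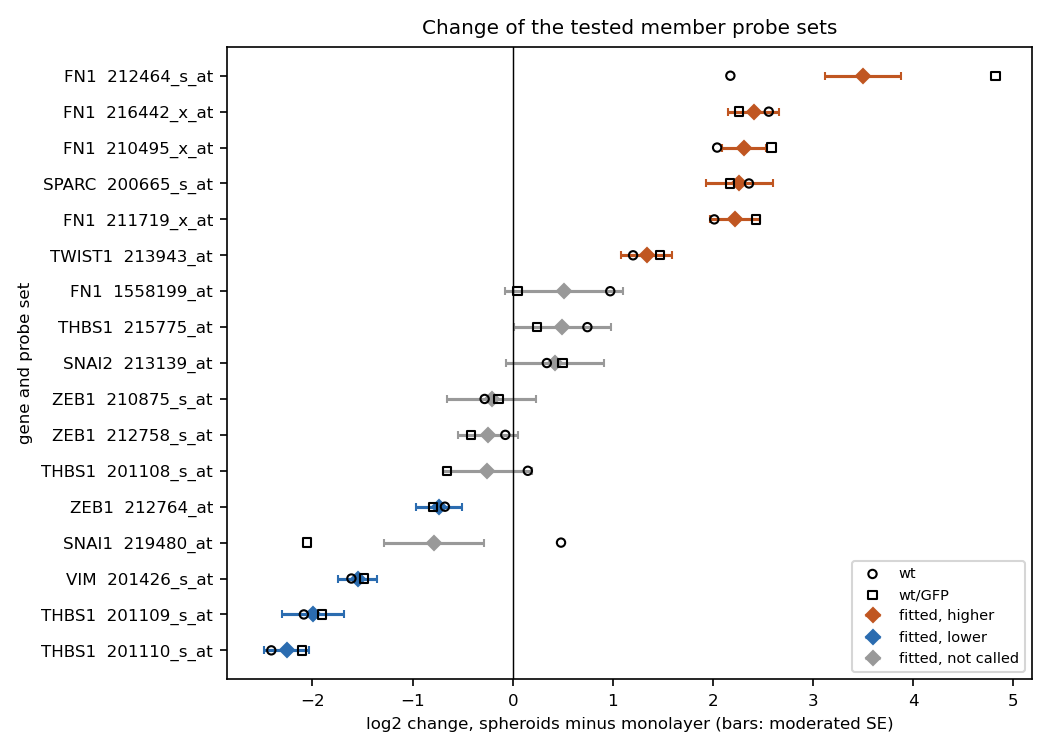
Log2 change, spheroids minus monolayer, of the 17 tested probe sets; diamonds are the fitted change with its moderated SE, circles the change in wt and squares that in wt/GFP. The 6 higher probe sets belong to FN1, SPARC and TWIST1 and the 4 lower ones to THBS1, VIM and ZEB1, while the lines lie farthest apart for FN1 212464_s_at and SNAI1.

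Among the transcription factors, TWIST1 was the only gene called higher. Its only probe set, 213943_at, gave 124 and 122 in wt and wt/GFP monolayers and 303 and 362 in spheroids. The monolayer values were nearly equal and lay below the 90th percentile of the restricted genes. Both spheroid values lay above it but below the highest HBB signal of 386. The mean log2 signal was 7.09 ± 0.02 (SD, n = 2) in monolayers and 8.43 ± 0.18 (SD, n = 2) in spheroids, a rise of 1.34 ± 0.25 SE (limma adjusted p = 0.000115). When arrays were scaled to their hybridisation controls, TWIST1 changed by 0.75 and was not called (adjusted p = 0.0756).

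ZEB1 was the only gene of the ZEB and SNAI families to be called. Probe set 212764_at gave 295 and 369 in wt and wt/GFP monolayers and 179 and 206 in spheroids. Its groups did not overlap, and its mean log2 signal of 8.43 ± 0.22 (SD, n = 2) in monolayers and 7.69 ± 0.13 (SD, n = 2) in spheroids fell by 0.74 ± 0.23 SE (limma adjusted p = 0.0115). This call was lost without the wt/GFP monolayer array (adjusted p = 0.165), without the wt spheroid array (0.0541) and without the intensity trend (0.0785).

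The other ZEB1 probe sets did not pass. Probe set 212758_s_at gave 138 and 185 in monolayers and 130 and 135 in spheroids, a log2 change of -0.25 (limma adjusted p = 0.547). Probe set 210875_s_at gave 68.8 and 68.9 against 54.2 and 61.1, a change of -0.21 (adjusted p = 0.744). Probe set 239952_at lay below the filter, with 19.6 and 34.1 against 3.75 and 5.94. In the 3 tested ZEB1 probe sets both spheroid values lay below both monolayer values, as in 24% of all probe sets tested.

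ZEB2, the close relative of ZEB1, was at the bottom of the range. Its 5 probe sets gave signals of 0.760 to 20.5, none reached the filter threshold on any array, and their means lay between percentiles 3.32 and 9.91 of all probe sets. With no filter, their log2 changes were -0.02 to 0.40 and none was called (limma adjusted p of at least 0.502).

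SNAI1, or Snail, had 1 probe set, 219480_at, with 67.8 and 122 in wt and wt/GFP monolayers and 100.2 and 18.6 in spheroids. It was higher in the wt spheroid and lower in the wt/GFP spheroid than in the monolayer of the same line, and the groups overlapped. Its mean log2 signal was 6.72 ± 0.52 (SD, n = 2) in monolayers and 5.93 ± 1.28 (SD, n = 2) in spheroids (change -0.79 ± 0.50 SE, limma adjusted p = 0.223). It was called lower when hybridisation controls set the scale (-1.38, adjusted p = 0.0157) and without the wt spheroid array (-1.69, adjusted p = 0.0352), and was 0.12 without the wt/GFP spheroid array.

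SNAI2, or Slug, had 1 probe set, 213139_at, with 34.3 and 51.0 in monolayers and 47.1 and 77.7 in spheroids. Each spheroid value was the higher one of its line, but the groups overlapped (log2 change 0.42 ± 0.49 SE, limma adjusted p = 0.533), and the change was -0.17 when hybridisation controls set the scale. All SNAI1 and SNAI2 signals lay below the 90th percentile of the genes restricted to other tissues.

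Within each probe set, the order of the arrays could be compared. In all 4 rising FN1 probe sets, SPARC 200665_s_at and TWIST1 the highest array was the wt/GFP spheroid and the next the wt spheroid. In VIM 201426_s_at, THBS1 201110_s_at, THBS1 201109_s_at and ZEB1 212764_at the highest array was the wt/GFP monolayer and the lowest the wt spheroid. The difference between wt/GFP and wt was not called for any of the 17 probe sets, with limma adjusted p of at least 0.802. In that comparison 6 of 32768 probe sets, 0.0183%, were called, and 5.74% had an unadjusted p under 0.05. Whether the culture change differed between the lines could not be tested, with 1 array for each line and condition.

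The 10 called member probe sets kept their direction under each scaling of the arrays, while the balance of calls over all probe sets varied. These are unlike measures, since the 10 were picked by their call as deposited. Of the called probe sets of all genes, 63.5% were higher as deposited, 48.6% with quantiles matched between arrays, 32.6% with each array's median set equal and 19.5% when the 18 hybridisation controls set the scale. In the same order, all tested probe sets had a median log2 change of 0.23, -0.03, -0.16 and -0.36, and the 17 member probe sets one of 0.42, 0.04, 0.03 and -0.17. All 10 called probe sets kept their direction and their call with quantile normalization and median centring. With the control scaling 9 of the 10 did, and TWIST1 kept its direction but not its call. Among the uncalled members, FN1 1558199_at, SNAI2 and THBS1 215775_at turned direction there, and SNAI1 was called lower.

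**Figure D3:**
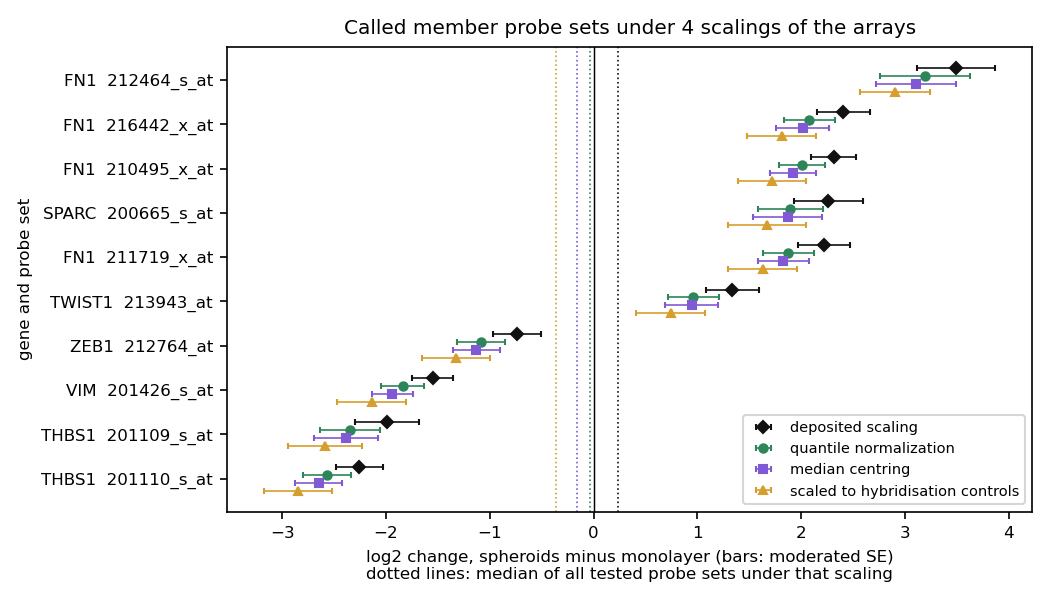
Log2 change with its moderated SE for the 10 called probe sets under 4 scalings of the arrays; dotted lines give the median of all tested probe sets under each scaling. Every probe set stays on its side of 0: FN1, SPARC and TWIST1 above it and ZEB1, VIM and THBS1 below.

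Genes with the most similar pattern were sought among 14341 other genes, by the Euclidean distance of log2 values over the 4 arrays, each centred on its mean. With 4 arrays many genes come close: 1968 genes lay within 0.5 of ZEB1, 1436 of TWIST1, 368 of VIM, 201 of FN1, 130 of SPARC and 9 of THBS1. Nearest to VIM were SKA3, a kinetochore protein (0.0487), SYTL3 (0.0760) and TUBA4A, an alpha-tubulin (0.0768). Nearest to FN1 were CECR2 (0.0768), RFX3 (0.0944) and HECA (0.0963), and to TWIST1 CAMLG (0.0385), AFF1 (0.0436) and IRF2BPL (0.0448). Nearest to SPARC were GAL3ST4 (0.120), H2BC5, a histone H2B (0.185), and ARRDC3 (0.189). Nearest to ZEB1 were CYREN (0.0533), NANOS1 (0.0584) and ADISSP (0.0616), and to THBS1 CLN6 (0.280), DHRS2 (0.296) and FOXM1, a transcription factor of dividing cells (0.305).

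Related genes were read from 7 lists of 94 entries, each gene by its brightest probe set. Over all genes so counted 29.6% were called higher and 17.7% lower, and the median log2 change was 0.23. Among epithelial guardians, transcription and splicing factors that maintain the epithelial state, 9 of 11 tested genes rose and 0 fell. The list median was 1.31. OVOL2 had a change of -0.99 (limma adjusted p = 0.0523) and CDX2 one of -0.39, and neither was called. GRHL3, 1 of the 9, had a change of 3.02 in wt and 0.13 in wt/GFP. EHF and ELF3, factors of the ETS family, rose 8.02-fold and 6.93-fold, and KLF4 and KLF5, Krüppel-like factors of gut epithelium, by 2.31 ± 0.12 SE and 2.16 ± 0.14 log2 units (limma adjusted p of 2.43e-12 or less for each). With quantile normalization 7 rose and 1 fell, and the same counts held with median centring. With the control scaling 4 rose and 1 fell, and the median was 0.72.

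Among epithelial structural genes 12 of 15 rose and 0 fell, with a median of 0.92. VIL1 was 1 of the 12, but its monolayer signals of 16.1 and 28.8 lay below the filter threshold. It thus passed the filter through the spheroid arrays alone. KRT20, a keratin of mature colon cells, rose by 2.51 ± 0.21 SE (limma adjusted p = 2.54e-10). CDH1, the E-cadherin gene that the SNAI and ZEB proteins repress, gave signals of 916 and 889 in wt and wt/GFP monolayers and 4493 and 4866 in spheroids. CDH1 and the claudin genes CLDN3 and CLDN4 rose by 2.26 to 2.44 log2 units. The control scaling left 5 higher and 3 lower, with a median of 0.33.

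Of 14 mesenchymal and matrix genes tested, 8 rose and 1 fell, with a median of 0.67. COL1A1, a chain of type I collagen, gave 303 and 338 in monolayers and 2275 and 3780 in spheroids, a rise of 3.14 ± 0.16 SE (limma adjusted p = 1.58e-14). COL6A1, a chain of type VI collagen, rose by 1.96 ± 0.13, although 1 of its 4 other tested probe sets moved the opposite way, and S100A4, a calcium-binding protein of motile cells, by 1.73 ± 0.14. COL3A1, which passed the filter through the spheroid arrays alone, had a change of 1.45 ± 0.59 and was not called (adjusted p = 0.0517). AXL, a receptor tyrosine kinase linked to mesenchymal states, fell by 1.27 ± 0.13 (adjusted p = 1.12e-08), from 3022 and 3140 to 1337 and 1206. With the control scaling 3 rose and 1 fell, and the median was 0.07.

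Markers of fibroblasts, which also express FN1 and SPARC, were read beside these rises. Of 9 such markers 5 exceeded the filter and 3 were below it on all arrays, and their summed signal was 510 and 562 in monolayers against 2565 and 4209 in spheroids. Without COL1A1 the sums were 207 to 225 and 290 to 430. The 5 tested markers had a median log2 change of 1.33, beside 0.23 for all genes, and COL1A1 was the only one called. FAP, a protease of activated fibroblasts, gave 7.25 and 48.3 in monolayers and 77.6 and 77.8 in spheroids (log2 change 1.33, limma adjusted p = 0.0528). COL3A1 gave 29.5 and 6.56 against 57.4 and 79.8. Both of its monolayer signals lay below the filter threshold, so COL3A1 entered the median of the 5 through the spheroid arrays alone. DCN and THY1 had changes of -0.04 and 0.30 and were not called. Of the untested markers, COL1A2, the second chain of type I collagen, gave 7.47 to 28.6, LUM 5.62 to 22.8, PDGFRA 6.30 to 16.1 and PDGFRB 6.41 to 76.3. The part of these markers in the rises of FN1 and SPARC was not tested. Of 4 leukocyte markers 2 exceeded the filter, ITGAM with 97.8 to 141 and CD3E with 29.5 to 68.0, and their sums were 209 and 157 in monolayers and 208 and 180 in spheroids. Of 5 endothelial markers PECAM1 alone exceeded it, with sums of 183 and 146 against 261 and 301. In RNA from whole cultures, a change in the share of cells that express a gene and a change in RNA per cell cannot be told apart.

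**Figure D4:**
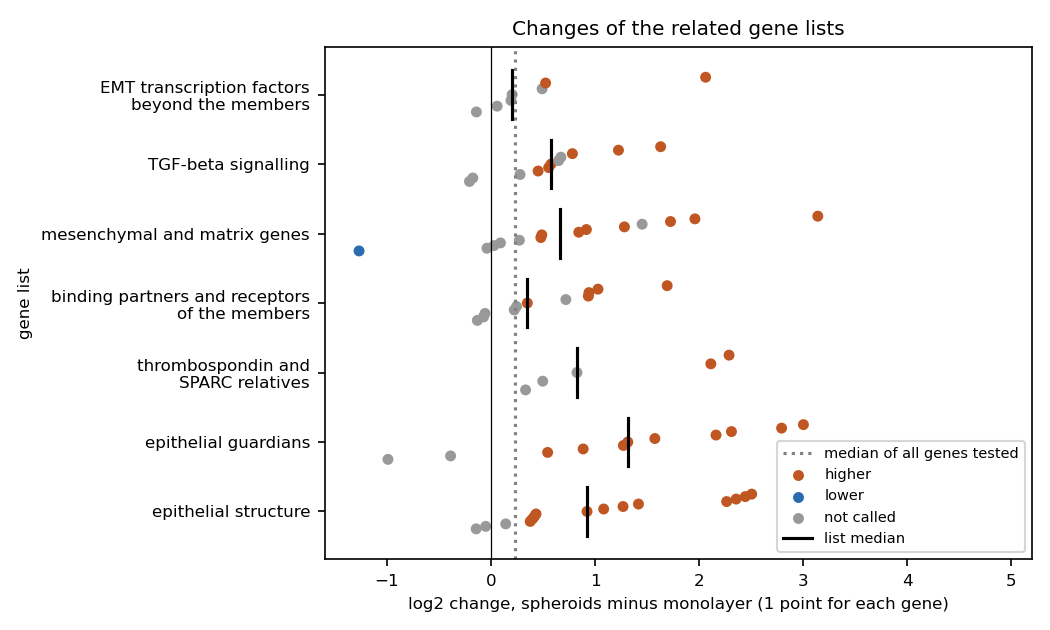
Log2 change of each tested gene in the 7 related lists, with orange for higher, blue for lower and grey for not called; black bars are list medians and the dotted line the median of all genes, 0.23. Epithelial guardians have the highest median, 1.31, and AXL is the only gene called lower.

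The remaining lists had fewer calls. Of 7 other EMT transcription factors tested, SOX4 rose by 2.06 ± 0.13 SE (limma adjusted p = 1.93e-12) and SOX9 by 0.52 ± 0.16 (adjusted p = 0.00969). The SOX9 signal was 3641 and 3657 in wt monolayer and spheroid and 3245 and 6697 in those of wt/GFP, so that the rise came from wt/GFP alone, and it was not called after median centring (0.13, adjusted p = 0.573). SNAI3 and TCF3 had changes of 0.49 and 0.20 and were not called, and 6 of 11 other TCF3 probe sets moved opposite to the brightest. The list median was 0.20, and after the control scaling SOX4 alone rose. Of 11 genes of TGF-beta signalling 6 rose and 0 fell, with a median of 0.58. SKIL, a feedback inhibitor of SMAD proteins, rose by 1.63 ± 0.16, LTBP1, which holds latent TGF-beta in the matrix, by 1.22 ± 0.30 and the receptor TGFBR1 by 0.78 ± 0.12, while TGFB2 had a change of 0.67 and did not pass. The other tested probe set of TGFBR1 moved the opposite way, and with the control scaling 1 gene of the list rose and 0 fell.

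Of 11 binding partners and receptors 5 rose and 0 fell, with a median of 0.35. NES, the intermediate filament protein nestin, rose by 1.69 ± 0.26 SE, the fibronectin receptor subunit ITGA5 by 1.03 ± 0.23, ITGAV by 0.94 ± 0.13 and the filament linker PLEC by 0.94 ± 0.33 (limma adjusted p of 0.0244 or less). The PLEC signal went from 66.2 to 279 in wt but was 215 in both cultures of wt/GFP. Its call was lost with quantile normalization (adjusted p = 0.259) and median centring (0.218), and the second PLEC probe set tested went the opposite way. In this list the control scaling gave 1 higher and 2 lower with a median of -0.24. Among 5 relatives of thrombospondin 1 and SPARC, 2 rose and 0 fell. SPARCL1 gave 25.3 and 2.31 in monolayers and 96.0 and 125 in spheroids, a fitted change of 2.29 ± 0.56 (adjusted p = 0.00154). Both of its monolayer signals lay below the filter threshold, so it passed the filter through the spheroid arrays alone and the size of its change is uncertain. THBS3 gave 35.3 and 81.7 against 243 and 329, a rise of 2.11 ± 0.32 (adjusted p = 5.20e-06), whereas THBS1 fell. SMOC2 and THBS4 had changes of 0.83 and 0.50 and did not pass.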

How the data were processed

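Per the labels' protocols, total RNA of HCT116 wt and HCT116 wt/GFP in both culture forms was made into biotinylated cRNA, with 1 array per line and form. The deposited values are intensities on a linear scale, made by the authors with MAS5 per the submitters' processing notes, whose version no source used here gives. MAS5 brings arrays to a common trimmed mean. Detection calls were not used here.

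Controls (62 of 54675 probe sets) were left out. Names come from the annotation of the platform, with symbols updated through gene identifiers: 41091 had 1 symbol, 1801 several and 11721 none. A pseudocount of 14.0, the 25th percentile of the signals, was added before taking log2. Limma 3.58.1 in R 4.3.3 was fitted with culture condition and cell line over the 4 arrays, with a trended prior. Only 1 degree of freedom was residual and 24.9 came from the prior. Errors therefore rest mainly on how far the 2 lines disagreed in probe sets of like brightness, which may be technical. A p-value reflects the disagreement of the lines in its own probe set only in small part. The pairing comes from the line in the labels; the line difference in monolayers correlated at -0.00322 with that in spheroids across probe sets. The procedure was tested on data simulated with independent errors of the fitted size, which cannot show whether the model's assumptions hold here.

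Probe sets rather than genes were tested because the members are probe sets. The named genes are all members, up to 4 tested genes with the largest change in each list, and the 3 nearest patterns of each called member. AXL, HBB, MBP, OVOL2, GRHL3 and the markers of colon epithelium and of other cell types were named after their values were seen. Members and lists were chosen with earlier results of these data known. Promoters are from RefSeq. Alternatives were other scalings, pseudocounts, filters, units and moderation, no line block and each array left out. The number of arrays limits the precision.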

Additional observations from a re-analysis of the deposited data

Results flagged for a closer look

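SNAI1 moved opposite ways in the lines: its log2 change in spheroids was 0.48 in wt and -2.05 in wt/GFP, with 1 array for each line and condition. THBS1 probe set 201108_s_at did the same, with 0.15 in wt and -0.66 in wt/GFP. Neither difference between the lines was tested, since no line and condition had a replicate, and both probe sets were dim, with signals of 18.6 to 122 and of 51.8 to 94.3.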

How the results depend on the processing

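Of 246 values of the tested member probe sets under the alternatives, 232 kept their direction and their side of the threshold, 6 lost the call, 2 gained it and 6 turned direction; none of the 10 called probe sets turned. Besides the cases named with FN1, ZEB1, TWIST1 and SNAI1, the turned values were those of uncalled probe sets: after scaling to hybridisation controls FN1 1558199_at (-0.0816), SNAI2 (-0.17) and THBS1 215775_at (-0.10), and with an array left out FN1 1558199_at (-7.94e-05 to 1.02 over the left-out arrays), THBS1 201108_s_at (0.11) and SNAI1 (-1.69 to 0.12). Probe sets called over the whole array numbered 13137, and 7740 without probe sets shared between transcripts, 7050 with 1 probe set per gene and 2857 without the intensity trend; the first 2 test fewer probe sets, and the cause of the third was not tested. Member calls were 10, and 2 without shared probe sets, where 6 were tested, and 6 with 1 per gene, where 8 were tested. Without the intensity trend 8 member probe sets were called, at limma adjusted p of 0.0479 to 0.0488, just under the threshold. Calls between the lines were 6, and 1 after quantile normalization, without a pseudocount or without a filter, 10 with a filter at the 60th percentile and 0 without the trend. With each array left out, fitted with no line block, 9 to 10 member probe sets and 9445 to 11580 of all were called. With no replicate block of line, 10 and 12214 were called. Dim probe sets, 15 of the 32 members, allow no statement on change.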

Other observations

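ZEB1-AS1, the antisense gene beside ZEB1, was chosen after its values were seen. Its probe set gave 66.3 and 105 in wt and wt/GFP monolayers and 196 and 206 in spheroids, a rise of 1.14 ± 0.32 SE (limma adjusted p = 0.00480), whereas ZEB1 212764_at fell.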
